A study of Saccharomyces cerevisiae with 12 samples.

Results

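Budding yeast makes its membrane fatty acids from acetyl-CoA, and the mRNA of 10 genes that carry out or direct this work is described here in 2 strains of *Saccharomyces cerevisiae*. The genes were picked by name from a deposited table of 6345 yeast features. They are OLE1, its regulators MGA2 and SPT23, the synthesis genes ACC1, FAS1 and FAS2, and the elongation genes ELO1, ELO2, ELO3 and TSC13. By name or listed synonym 8 of them were found. The other 2 stand in the table under older symbols that RefSeq gives as synonyms, ELO3 as SUR4 and ELO2 as FEN1, a symbol shared with RAD27, which has its own row. All values of ELO2 and ELO3 rest on that match.

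Both strains are engineered from D452-2, and their pRS316 plasmid encodes cdt-1, an integral membrane protein of the fungus *Neurospora crassa* that carries cellodextrins into the cell. Both copies of the gene are tagged with GFP at the C terminus. The NC strain has the endogenous codons and the OPT strain a codon-optimized version. Cells were harvested in mid-exponential growth, and 3 biological replicates of each strain gave the 6 mRNA libraries used here. What promoter drives the transgene, which medium was used and whether each strain is 1 clone is not stated in the labels. Ribosome footprints, another 6 libraries, are not used here, so nothing below is a rate of protein synthesis.

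In the cytosol, acetyl-CoA carboxylase (Acc1) makes malonyl-CoA, and fatty acid synthase, a complex of Fas1 and Fas2, builds saturated acyl chains from it. Ole1, the desaturase of the endoplasmic reticulum (ER), puts a double bond into these chains, and this yeast cannot live without its product unless unsaturated fatty acids are supplied. Mga2 and Spt23 are made as precursors held in the ER membrane, and when acyl chains are too saturated the proteasome frees their soluble parts, which enter the nucleus and switch on OLE1. A cycle of reactions in the ER membrane lengthens acyl chains further, with the Elo proteins at its first step and Tsc13 at its last, and sphingolipids need the longest of these chains.

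Levels are normalized RPKM, read numbers corrected for gene length and library size as scaled by the authors. Each library adds up to 999285 to 999421, so a level is a share of the measured mRNA and not an amount per cell. In bulk RNA of a culture, fewer cells with a transcript and less transcript per cell cannot be told apart. A read in a gene of 1000 nucleotides was worth 0.0222 to 0.0411 RPKM, as estimated from the low values, and every one of the 10 genes then rested on at least 2320 reads in each library, a counting error of at most 2.08%. The row for endogenous cdt-1 stood at 506 to 567 RPKM in NC and the row for optimized cdt-1 at 420 to 557 RPKM in OPT, each listed at 0 in the other strain. Of the genes that mark mating types, STE3 and SAG1 of alpha cells had strain means of 76.3 to 138 RPKM, and STE2, STE6, BAR1, MFA1 and MFA2 of a cells had strain means of 7.20 to 17.7 RPKM. STE3, the receptor for the pheromone of a cells, fell from 138 ± 19.1 to 82.6 ± 4.67 RPKM in OPT (SD, n = 3; log2 difference -0.73, limma adjusted p = 0.00724). MF(ALPHA)1, a pheromone gene of alpha cells, fell as well (log2 difference -1.04, limma adjusted p = 0.00103). It stood at 3589, 3301 and 3854 RPKM in NC and at 1771, 1730 and 1709 RPKM in OPT. SAG1 and the 5 a-cell genes did not pass, though STE2 and MFA1 stood higher in each OPT library than in any NC library. The part of these differences in the results below was not tested. Across features, the log2 levels of NC replicate 3 correlated at 0.979 and 0.985 (Pearson's r) with NC replicates 1 and 2, and those of the OPT replicates at 0.991 to 0.996 with each other.

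All 10 genes had a lower mean level in OPT, and the estimated difference was largest for OLE1. The 95% interval of its log2 difference, -1.34 to -0.64, overlapped those of ELO3 (-0.73 to -0.18), FAS1 (-0.66 to -0.21) and ELO2 (-0.65 to -0.19). OLE1 mRNA was 2.02-fold higher in NC than in OPT, and FAS1, FAS2, ELO2 and ELO3 were lower by 22.3 to 27.1%. These 5 genes fell by the test across all features, and the other 5 did not pass. The test was limma on log2(RPKM + 1) over 5982 yeast features, those that averaged 1 RPKM or more (as all 10 genes do), and a call is a Benjamini-Hochberg adjusted p under 0.05. Over all features 13.8% were called lower in OPT and 5.38% higher. The median log2 difference, OPT minus NC, was -0.33 over the 10 genes and -0.06 over all features. It was below 0 for all 10 genes and for 61.7% of all features. In 9 of the 10 genes the 3 OPT values lay below the 3 NC values without overlap, as they did in 27.6% of all features. Without NC replicate 3, the library least like the others of its strain, OLE1, FAS1, FAS2, ELO2 and ELO3 were again the genes called. Without OPT replicate 1 or without OPT replicate 2 OLE1 was the 1 gene called, and without OPT replicate 3 it was called with ELO2. With the library medians set equal, or with quantile normalization, OLE1 alone of the 5 stayed called. Of all features 8.21% were called lower with equal medians and 10.1% with quantile normalization. All 10 genes stayed lower in OPT under each of the 13 alternatives, but the share of all features that did so was not counted. With equal medians SPT23 and ACC1 stood at -0.02 and -0.04 (limma adjusted p = 0.814 and 0.782).

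**Figure D1:**
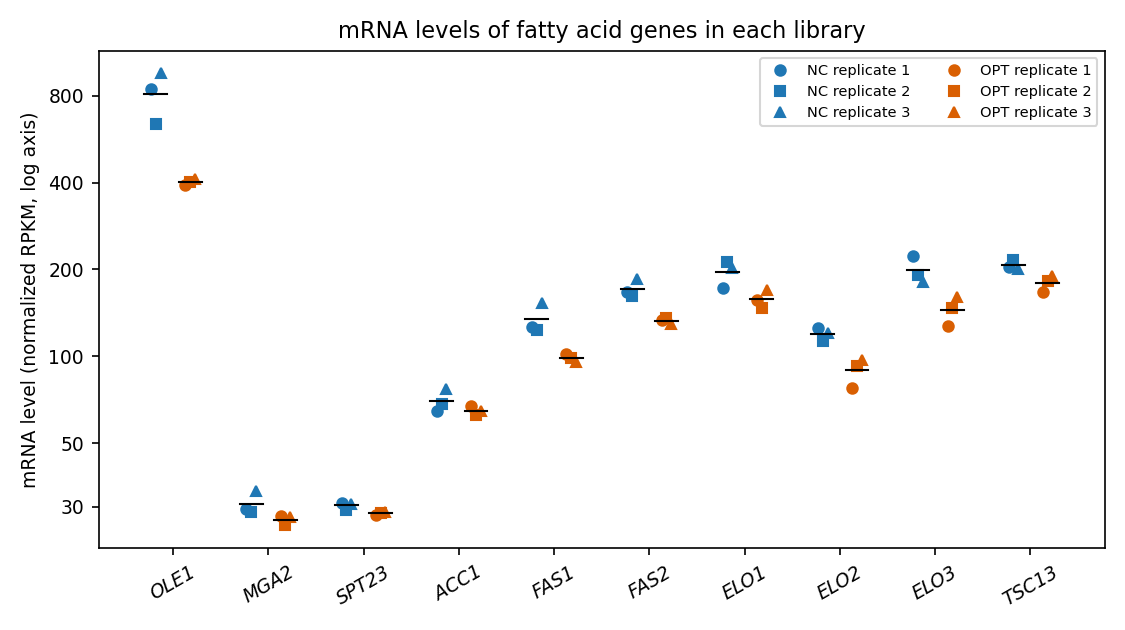
mRNA level (normalized RPKM, log axis) of the 10 genes in each of the 3 NC libraries (blue) and 3 OPT libraries (orange), with symbols for the replicates and black bars for strain means. OLE1 stands at 637 to 957 RPKM in NC and at 392 to 413 RPKM in OPT, whereas the points of ACC1 overlap between the strains.

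The desaturase gene OLE1 (YGL055W, chromosome VII, 398628 to 400160 in build R64) was the most abundant of the 10 transcripts in both strains. It stood at 847, 637 and 957 RPKM in NC replicates 1, 2 and 3 and at 392, 402 and 413 RPKM in OPT replicates 1, 2 and 3. The lowest NC library was thus well above the highest OPT library, and the NC libraries spread widely while the OPT libraries nearly coincided. The means were 813 ± 162 RPKM in NC and 402 ± 10.2 RPKM in OPT (SD, n = 3). The log2 difference was -0.99, with a standard error of 0.15, a 95% interval of -1.34 to -0.64 and a limma adjusted p of 0.00724. Only 0.451% of all tested features had a more negative log2 difference than OLE1, which ranked 309 from the top in mean level. NC replicate 3 held the highest value, and without it the difference was -0.87 (limma adjusted p = 0.00642). Over all alternatives the log2 difference lay between -1.16 and -0.86, and the call held in each of them, with a highest adjusted p of 0.039.

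Beside the other 9 genes, OLE1 stood out in every library. Its log2 level lay above their mean log2 level by 3.03, 2.64 and 3.13 in NC and by 2.22, 2.23 and 2.21 in OPT. The margin was smaller in each OPT library than in any NC library, by 0.71 on average, and by 0.61 without NC replicate 3. OLE1 made up 42.6, 35.8 and 44.7% of the summed RPKM of the 10 genes in NC and 30.7, 30.4 and 30.0% in OPT. The sum itself came to 1969 ± 181 RPKM in NC against 1325 ± 48.0 RPKM in OPT, and without OLE1 to 1156 ± 23.6 against 923 ± 37.8 RPKM (SD, n = 3).

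The mRNAs of both regulators of OLE1 did not pass the test. MGA2 (YIR033W, chromosome IX, 416124 to 419465) stood at 29.6, 28.7 and 34.1 RPKM in NC and at 27.9, 25.9 and 27.6 RPKM in OPT. Its highest value was that of NC replicate 3, and the strains came within 1 RPKM of each other without overlapping. The log2 difference was -0.17, with a 95% interval of -0.37 to 0.02 (limma adjusted p = 0.179). SPT23 (YKL020C, chromosome XI, 398832 to 402080) stood at 31.1, 29.4 and 30.8 RPKM in NC and at 28.2, 28.6 and 28.9 RPKM in OPT. These values too lay close together, with OPT just below NC, and the log2 difference was -0.09, with a 95% interval of -0.22 to 0.05 (limma adjusted p = 0.321). Both intervals end short of the interval of OLE1. The mRNA of MGA2 and SPT23 stood in a ratio of 0.952, 0.978 and 1.11 in NC and of 0.989, 0.903 and 0.956 in OPT, ranges that overlap. OLE1 stood at 28.6, 22.2 and 28.0 times the level of MGA2 in NC and at 14.0, 15.6 and 14.9 times in OPT.

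None of the 5 genes for processing of these regulators passed the test in either direction. They were RSP5, the ubiquitin ligase that marks the precursors, UBX2, an ER membrane protein that recruits Cdc48, CDC48 itself, and its cofactors NPL4 and UFD1. CDC48, the segregase ATPase, stood at 335 ± 25.7 RPKM in NC and 335 ± 21.1 RPKM in OPT (SD, n = 3). UFD1 stood at 69.5 ± 6.85 and 63.5 ± 2.36 RPKM (limma adjusted p = 0.333). The median log2 difference of the list was 0.02. OLE1 is also known to rise when oxygen is low. A list of 8 other genes tied to oxygen supply held 7 known for higher expression at low oxygen. The other was ROX1, a repressor of such genes that is made when oxygen is present. In this list 1 gene fell and none rose, a share of 12.5% beside 13.8% of all features. In 4 of the 8 (50%), AAC3, HEM13, TIR1 and DAN1, OPT lay below NC without overlap, as in 27.6% of all features. HEM13, TIR1 and DAN1 did not pass (limma adjusted p = 0.179, 0.0799 and 0.0883). The part of oxygen supply in the fall of OLE1 was not tested. The gene that fell was AAC3, the mitochondrial ADP/ATP carrier of cells short of oxygen, at 4.57, 5.12 and 5.55 RPKM in NC and 2.33, 2.10 and 2.44 RPKM in OPT (log2 difference -0.88, limma adjusted p = 0.0059).

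**Figure D2:**
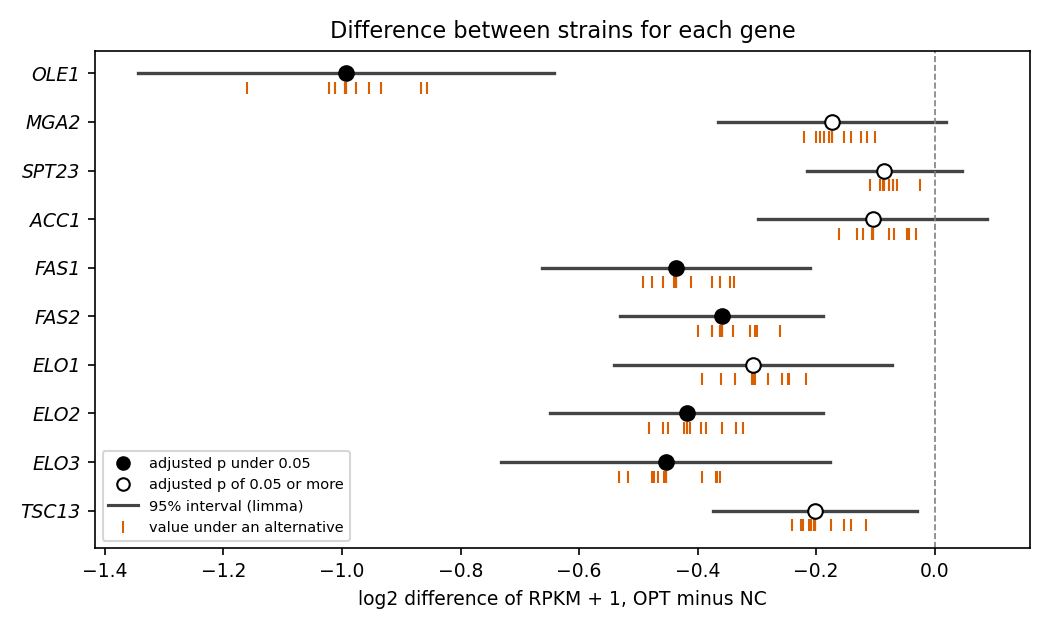
Log2 difference of RPKM + 1 (OPT minus NC) for each gene, with the 95% interval of limma as a line, filled circles for an adjusted p under 0.05, and orange ticks for the values under the 13 alternatives. The circle of OLE1 lies at -0.99, apart from those of the other 9 genes, but its interval overlaps those of ELO3, FAS1 and ELO2. No tick of any gene reaches 0.

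Both subunits of fatty acid synthase fell together. FAS1, the gene of the beta subunit (YKL182W, chromosome XI, 100671 to 106826), stood at 126, 123 and 153 RPKM in NC and at 102, 98.9 and 95.2 RPKM in OPT. FAS2, the gene of the alpha subunit (YPL231W, chromosome XVI, 108652 to 114315), stood at 167, 162 and 184 RPKM in NC and at 133, 136 and 129 RPKM in OPT. For both genes NC replicate 3 was highest and every OPT library lay below every NC library. The log2 difference was -0.44 for FAS1 (standard error 0.09, limma adjusted p = 0.0229) and -0.36 for FAS2 (standard error 0.07, limma adjusted p = 0.0174). Neither call held with equal library medians (adjusted p = 0.0655 and 0.0625), with quantile normalization (0.0582 and 0.0503) or without any 1 of the OPT replicates (adjusted p up to 0.0899 and 0.0747).

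FAS2 mRNA stood above FAS1 mRNA in every library. The complex holds both protein subunits in equal number, but RPKM is a measure of RNA, and protein was not measured here. FAS1 stood to FAS2 in a ratio of 0.757, 0.765 and 0.831 in NC and 0.763, 0.728 and 0.736 in OPT. These ranges overlap, with means of 0.784 ± 0.0408 and 0.742 ± 0.0184 (SD, n = 3). The profiles of FAS1 and FAS2 were among the most alike of all pairs of the 10 genes. Their log2 levels, each centred on its mean over the 6 libraries, differed by a root mean square of 0.06, second to MGA2 and ACC1 at 0.05.

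The carboxylase gene ACC1 was the only 1 of the 10 whose strains overlapped. ACC1 (YNR016C, chromosome XIV, 654673 to 661374) stood at 64.4, 68.1 and 77.1 RPKM in NC and at 67.2, 62.3 and 64.8 RPKM in OPT. NC replicate 1 lay below OPT replicates 1 and 3, and the log2 difference was -0.10, with a 95% interval of -0.30 to 0.09 (limma adjusted p = 0.404). FAS2 stood at 2.59, 2.37 and 2.39 times the level of ACC1 in NC and at 1.98, 2.18 and 2.00 times in OPT. That ratio was lower in each OPT library than in any NC library. HFA1, the mitochondrial counterpart of ACC1, stood at 12.7 ± 1.46 and 11.7 ± 0.614 RPKM and did not pass the test either.

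**Figure D3:**
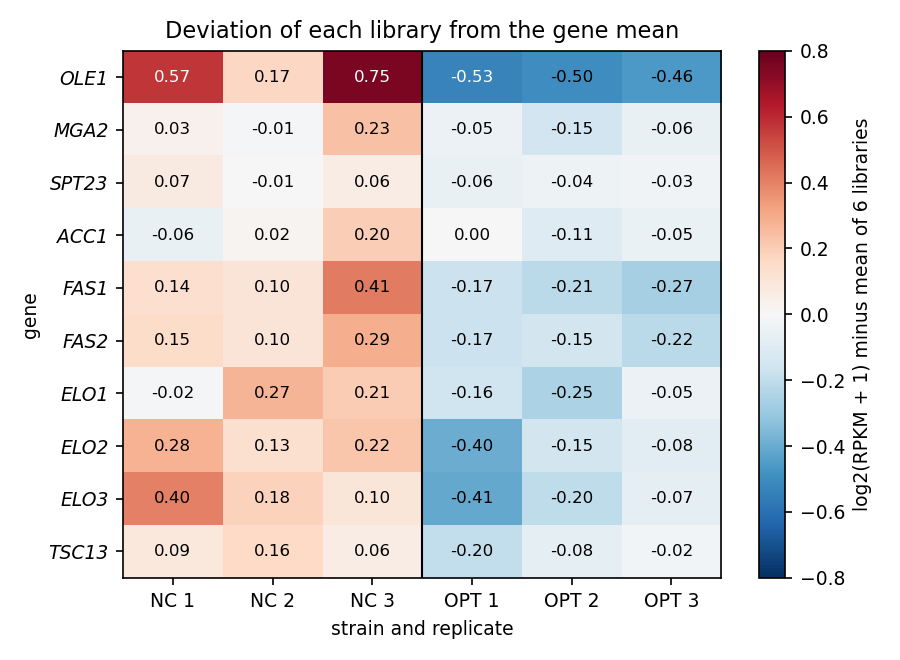
Log2(RPKM + 1) of each gene in each library minus the gene's mean over the 6 libraries, with red above and blue below the mean and the value in each cell. NC replicate 3 is the highest library for OLE1, MGA2, ACC1, FAS1 and FAS2, whereas ELO2 and ELO3 peak in NC replicate 1 and are lowest in OPT replicate 1.

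The elongase genes ELO2 and ELO3 fell, and ELO1 did not pass. ELO2, whose product makes very long chains from the common long ones (YCR034W, chromosome III, 190592 to 191635), stood at 125, 113 and 120 RPKM in NC and at 77.8, 92.8 and 97.2 RPKM in OPT. ELO3, whose product completes the longest chains of sphingolipids (YLR372W, chromosome XII, 867354 to 868391), stood at 223, 192 and 181 RPKM in NC and at 127, 147 and 161 RPKM in OPT. For both genes NC replicate 1 was the highest library and OPT replicate 1 the lowest, and the strains did not overlap. The log2 difference was -0.42 for ELO2 (standard error 0.10, limma adjusted p = 0.0274) and -0.45 for ELO3 (standard error 0.12, limma adjusted p = 0.0387). Both calls ended with equal medians (adjusted p = 0.0557 and 0.058), with quantile normalization (0.0759 and 0.102) and without NC replicate 1, OPT replicate 1 or OPT replicate 2 (up to 0.0838 and 0.117), and that of ELO3 also without NC replicate 2 or OPT replicate 3 and with no filter on low values.

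ELO1, the gene of the elongase of medium-length chains (YJL196C, chromosome X, 67850 to 68782), stood at 173, 212 and 202 RPKM in NC and at 156, 147 and 169 RPKM in OPT. Its lowest NC value and highest OPT value nearly touched. The log2 difference was -0.31 with a 95% interval of -0.54 to -0.07, and the limma adjusted p was 0.0715. It passed when libraries were weighted (adjusted p = 0.039) and without NC replicate 1 (0.0303). ELO3 stood at 1.79, 1.70 and 1.50 times the level of ELO2 in NC and at 1.63, 1.58 and 1.65 times in OPT, and ELO1 at 1.38, 1.88 and 1.68 times in NC and at 2.01, 1.58 and 1.74 times in OPT. Both ratios overlapped between the strains, and that of ELO1 spread more widely between replicates.

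The later steps of the elongation cycle showed the same direction. TSC13, the enoyl reductase of its last step (YDL015C, chromosome IV, 426002 to 426934), stood at 204, 215 and 201 RPKM in NC and at 168, 182 and 189 RPKM in OPT. The strains did not overlap, but the log2 difference of -0.20 had a limma adjusted p of 0.0965. The 2 enzymes between the Elo proteins and Tsc13 fell. PHS1, the dehydratase, stood at 147, 156 and 159 RPKM in NC and at 117, 110 and 112 RPKM in OPT, a log2 difference of -0.44 (limma adjusted p = 0.00652) whose call held in all 13 alternatives. IFA38, the ketoreductase, stood at 180, 183 and 203 RPKM in NC and at 128, 131 and 148 RPKM in OPT, a log2 difference of -0.48 (limma adjusted p = 0.0122) whose call ended without OPT replicate 1 or 2 (adjusted p up to 0.0653). Of the genes of the cycle, ELO2, ELO3, IFA38 and PHS1 thus passed the test.

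The order of levels was nearly the same in both strains. OLE1 came first, followed by TSC13, ELO1 and ELO3, whose ranges overlapped with their neighbours in both strains. FAS2 followed, with a range that overlapped ELO1 in NC and ELO3 in OPT and lay above that of FAS1. FAS1 and ELO2 overlapped in both strains. ACC1 stood below them at 69.9 ± 6.56 RPKM in NC and 64.8 ± 2.43 RPKM in OPT (SD, n = 3), and MGA2 and SPT23 stood last. In rank, OLE1 exceeded 94.8% of all tested features in mean level, and MGA2 exceeded 29.5%.

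The spread between replicates was wider in NC for 7 of the 10 genes, relative to the mean. The share of all features with a wider spread in NC was not counted. Across all features the NC libraries correlated at 0.979 to 0.992 (Pearson's r) with each other and the OPT libraries at 0.991 to 0.996. Between the strains the correlations were 0.965 to 0.980. The highest of these, of NC replicate 2 with OPT replicate 3, was slightly above that of NC replicates 1 and 3. NC replicate 3 held the highest NC value for 5 genes, OLE1, MGA2, FAS1, FAS2 and ACC1, and NC replicate 2 the lowest for 6. For OLE1 the SD was 19.9% of the mean in NC and 2.53% in OPT, and for FAS1 12.3 and 3.36%. ELO2 went the other way, with 5.11% in NC and 11.4% in OPT, and ELO3 was near 11.1 and 11.8%. The median gene of the 10 lay 0.11, 0.12 and 0.21 above its 6-library mean in NC replicates 1, 2 and 3 on the log2 scale, whereas the median deviations in the OPT replicates were -0.17, -0.15 and -0.07. The median of all features lay between -0.04 and 0.08 in the same libraries.

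**Figure D4:**
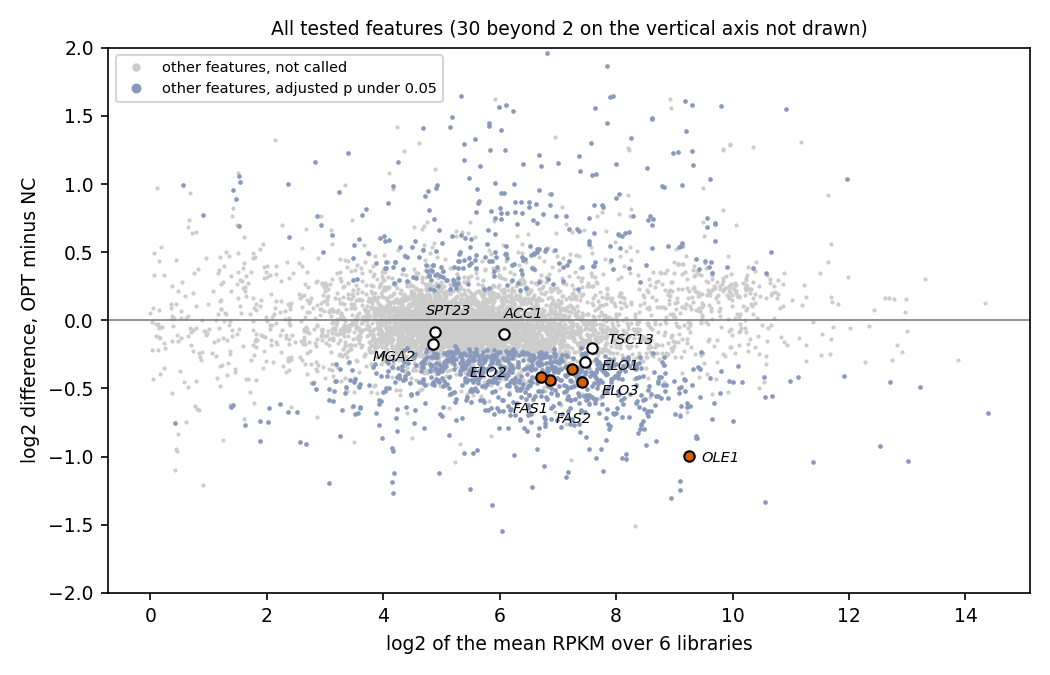
Log2 difference (OPT minus NC) against the log2 of the mean RPKM over the 6 libraries for all tested features, with called features in blue and the 10 genes as circles, filled orange where called. The vertical axis is limited to 2 in each direction, which leaves out 30 features, and OLE1 lies at -0.99 while the other 9 genes lie between -0.45 and -0.09.

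In its profile over the 6 libraries, OLE1 was most like genes of other functions. Named here are the 5 tested features with the smallest root mean square difference of centred log2 levels. They were ADE5,7, a purine synthesis gene, YOR387C, SER3, of serine synthesis, LHS1, an ER chaperone, and MF(ALPHA)1, the alpha-cell pheromone gene given above. Their differences from the OLE1 profile were 0.104 to 0.119. LHS1 stood at 57.7, 54.9 and 82.9 RPKM in NC and at 31.6, 33.2 and 32.9 RPKM in OPT, so that, as for OLE1, NC replicate 3 was highest and NC replicate 2 lowest. YOR387C has a near-identical copy and SER3 overlaps a noncoding RNA gene, so the values of both are uncertain. Of the other 9 genes, FAS1 came nearest to OLE1, at 0.30, and SPT23 and ACC1 lay farthest from it, at 0.48 and 0.47.

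Among further genes around the pathway, 12 of 66 tested fell and 1 rose, or 18.2 and 1.52%, near and below the shares of all features (13.8 and 5.38%). Of 6 genes that activate or bind acyl chains 2 fell and none rose. ACB1, the acyl-CoA binding protein, stood at 638, 646 and 984 RPKM in NC and at 520, 467 and 452 RPKM in OPT, with NC replicate 3 far above the other libraries (log2 difference -0.63, limma adjusted p = 0.0497). FAT1, which takes up fatty acids and activates very long ones, was lower at -0.32 (limma adjusted p = 0.0228). The acyl-CoA synthetase genes FAA1 to FAA4 did not pass.

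The genes for acetyl-CoA synthetase moved in opposite directions. ACS2, the main form in glucose, stood at 526, 525 and 500 RPKM in NC and at 338, 358 and 422 RPKM in OPT, a log2 difference of -0.48 (limma adjusted p = 0.0183). ACS1, the form repressed by glucose, stood at 17.1, 19.8 and 16.3 RPKM in NC and at 24.8, 24.7 and 24.7 RPKM in OPT, a log2 difference of 0.46 (limma adjusted p = 0.012). The strains did not overlap for either gene. In this list of acetyl-CoA and cofactor supply, 2 of 8 genes fell and 1 rose, beside 13.8 and 5.38% of all features. The other fall was that of CAB1, pantothenate kinase, at -0.35 (limma adjusted p = 0.0458).

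In the cytochrome b5 list 2 of 4 genes fell and none rose, beside 13.8 and 5.38% of all features. The other members, CBR1 at -0.24 and MCR1 at 0.28, did not pass (limma adjusted p = 0.061 and 0.252). CYB5, the electron donor of several lipid-modifying enzymes of the ER, stood at 925, 995 and 595 RPKM in NC and at 435, 401 and 410 RPKM in OPT. Its log2 difference of -0.98 (limma adjusted p = 0.016) was close in size to that of OLE1, but NC replicate 3, the highest library for OLE1, was the lowest NC library for CYB5. NCP1, a reductase that serves cytochromes P450, was lower at -0.25 (limma adjusted p = 0.0438).

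**Figure D5:**
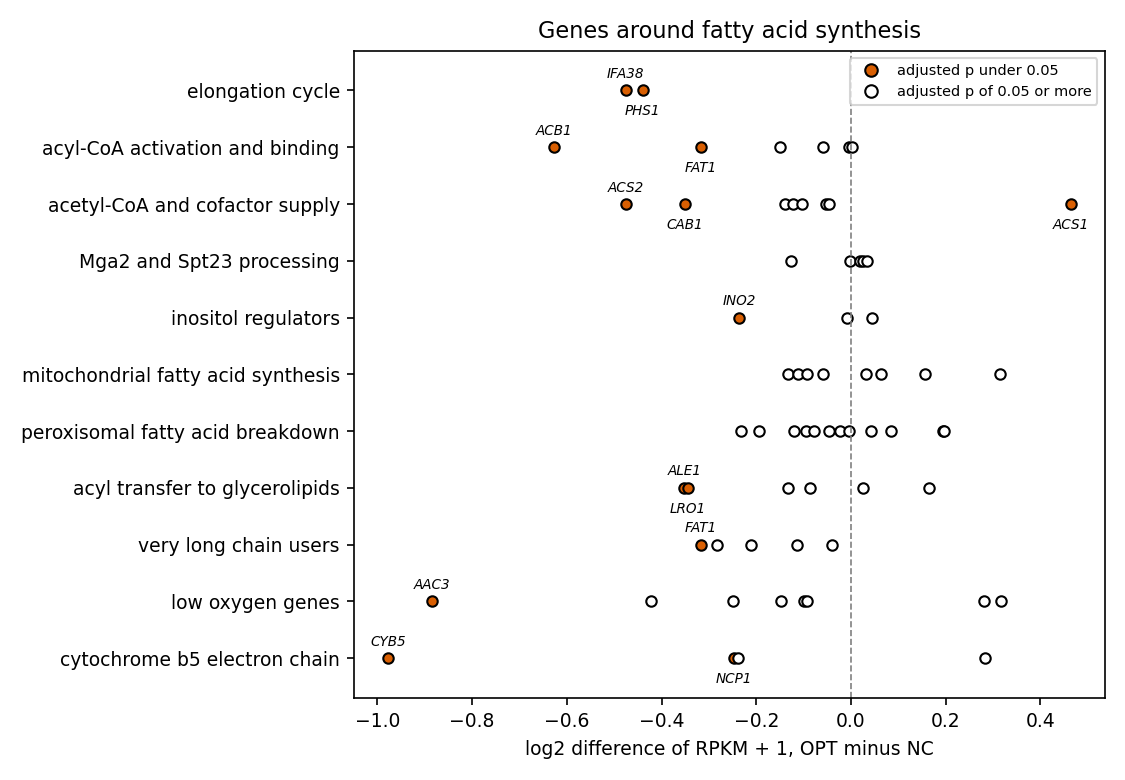
Log2 difference of RPKM + 1 (OPT minus NC) of each tested gene in 11 lists around fatty acid synthesis, 1 row a list, with filled circles for an adjusted p under 0.05. PHS1 and IFA38 of the elongation cycle are both called, ACS1 at 0.46 is the only called rise, and no gene of mitochondrial synthesis, peroxisomal breakdown or the processing of Mga2 and Spt23 is called.

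Of 6 genes for the transfer of acyl chains to glycerolipids, ALE1 and LRO1 fell, at -0.35 and -0.34 (limma adjusted p = 0.0458 and 0.0413). For this list and those below, the share of all features called lower was 13.8%. In the list of users of very long chains, FAT1 was the 1 called gene of 5, and the ceramide synthase genes LAC1 and LAG1 stood at -0.28 and -0.21 without passing (limma adjusted p = 0.075 and 0.0799). INO2, an activator of phospholipid and fatty acid synthesis genes, fell from 28.8 ± 0.607 to 24.3 ± 1.20 RPKM (log2 difference -0.24, limma adjusted p = 0.0412), while its partner INO4 and the repressor OPI1 did not pass. No gene passed among 8 of mitochondrial fatty acid synthesis, where ACP1, the acyl carrier protein, stood at -0.13 and ETR1, the enoyl reductase, at 0.32 (limma adjusted p = 0.328 and 0.101). ETR1 stood higher in each OPT library than in any NC library. It passed with quantile normalization (adjusted p = 0.047), equal library medians (0.0452) and without NC replicate 2 (0.0206). None of 12 measured genes of peroxisomal breakdown passed either, with PEX11, of peroxisome division, at -0.19 and TES1, a thioesterase, at 0.08 (limma adjusted p = 0.0977 and 0.574). PEX11 passed when libraries were weighted (adjusted p = 0.0392).

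Apart from PHS1 and AAC3, each of the 13 calls among these further genes ended without OPT replicate 1 and without OPT replicate 2, with adjusted p values that reached 0.158, for ALE1. With equal library medians ACB1, CAB1, ALE1, NCP1, INO2 and LRO1 lost their calls (limma adjusted p = 0.0558 to 0.1). The first 4 of them also lost their calls with quantile normalization (0.0574 to 0.099) and with a common prior variance (0.0503 to 0.0535). With no filter on low values ACB1, CAB1, ALE1 and LRO1 did so too (0.0637 to 0.0842). The direction of each called gene was the same in all alternatives that tested it. These were 12 for AAC3, which the minimum mean of 10 RPKM left out.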

How the data were processed

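Total RNA was made into TruSeq RNA libraries, per the labels' protocols. The values the authors deposited are normalized RPKM, per the file headers. Build R64 and the tools Bowtie, TopHat and CASAVA 1.8.0 come from the submitters' processing notes. Counting, strand use and the scaling of RPKM are not given in the sources used here. Of 6347 features, 2 of them cdt-1 rows, 5994 matched a RefSeq locus of R64, whose coordinates are given. A shifted repeat of ZWF1 was dropped. No RefSeq gene overlaps the 10 genes.

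R 4.3.3 and limma 3.58.1 (trend, two-sided, no covariates) compared NC and OPT as log2(RPKM + 1), on features that averaged 1 RPKM or more. Fold changes on this scale are understated for low genes. Simulated sets held 5974 features, 200 of them changed, in either direction at random. Changes of 1 on the log2 scale were recovered in 87.7%, changes of 0.5 in 57.4%, and 5.27% of calls were false. Noise was drawn independently for each feature, without shifts that features of a library share. These rates therefore need not hold for the data, where 1145 features were called and most calls were lower. Levels are also given as mean ± SD over 3 libraries. Depth came from the low values, which were whole multiples of 1 step per library within 0.15 reads for 98.5 to 100% of 35 to 70 values, and covers counting error only. The 13 alternatives left out each library in turn or used array weights, a common prior variance, equal library medians, quantile normalization, a minimum mean of 10 RPKM or none, or a pseudocount of 0.1. Of each further list, up to 4 called genes by size, or the 2 most abundant where none was called, are named, with a few others chosen after their values were seen. The 10 genes, the lists and the tests were chosen with earlier results of these data known.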

Additional observations from a re-analysis of the deposited data

How the results depend on the processing

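The log2 differences of the 10 genes kept their sign in all 13 alternatives, though the share of all features that did so was not counted. The count of the 10 genes called lower in OPT was 5, beside 13.8% of all features. It became 1 with quantile normalization and with equal library medians, beside 10.1 and 8.21% of all features. It was 1 to 5 when 1 library was left out, 1 without OPT replicate 1 or 2 and 2 without OPT replicate 3. None was called higher, at an unadjusted p under 0.05 or in any alternative. Of the further genes, 12 were called lower, 6 with equal medians and 2 to 16 when 1 library was left out; 1 was called higher, 3 with quantile normalization or equal medians, 2 with array weights and 0 to 3 when 1 library was left out. Over all features 1145 were called, and 361 to 1953 when 1 library was left out, with 1953 without NC replicate 3 and 483, 361 and 525 without OPT replicate 1, 2 and 3. With 2 libraries left in 1 strain, fewer samples enter the test; for the other changes of a call the cause was not tested. Lower calls made up 71.9% of all calls as deposited, 51.0% with equal medians and 58.9% with quantile normalization. Among the named genes, which were the ones recomputed singly, signs turned for CDC48 and TES1, neither of them called; equal medians raise all log2 differences alike, so that other uncalled genes near 0 turn as well. The log2 difference of CDC48 was -0.00156 and became 0.0561 with quantile normalization, 0.0588 with equal medians, 0.0103 with array weights and -0.0622 to 0.0477 when 1 library was left out. That of TES1 was 0.0842 and became -0.000915 without NC replicate 1, with 0.164 as the highest value when 1 library was left out. The ratio of FAS1 to FAS2 moved by less than its SD. No paired analysis was possible because the labels give the libraries no replicate numbers, and the numbers used here follow accession order and pair nothing. Depth does not limit these genes, at 2320 reads or more in each library.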
